A study of Homo sapiens with 28 samples.

Results

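H3K27ac peaks were examined at 5 genes for transcription factors of mesenchymal cells, TWIST1, SNAI2, PRRX1, RUNX1 and RUNX2. Members were chosen by name, and the peaks counted for each were those overlapping its gene body on GRCh37/hg19 widened by 20 kb on each side. The 14 peak lists held 654580 peaks in all, and 793 of them (0.121%) fell in the 5 windows, where they merged into 159 separate regions. RUNX1 had 392 of these peaks and RUNX2 had 324, whereas SNAI2 had 59, PRRX1 had 10 and TWIST1 had 8. The windows differ in length, from 42.2 kb for TWIST1, 43.8 kb for SNAI2 and 115 kb for PRRX1 to 263 kb for RUNX2 and 301 kb for RUNX1, so cover is given below as kb and as a percent of the window.

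H3K27ac, the acetylated form of lysine 27 on histone 3, marks active promoters and enhancers, and a stretch of it near a gene is commonly read as a sign of regulatory activity there. The lists came from SW872, an established human liposarcoma cell line. All cells were stably transduced by retrovirus and selected as pools, so that the empty vector controls had passed through the same infection and selection as the other cells. The 7 labels are the empty vector, Flag-tagged TAZ-CAMTA1 and YAP-TFE3 (the fusion proteins of epithelioid hemangioendothelioma, a vascular sarcoma), TAZ4SA and YAP5SA (forms of TAZ and YAP with serines mutated so that the Hippo kinases no longer restrain them), and full-length CAMTA1 and TFE3. Each label had 2 libraries, which the study calls biological duplicates. The labels name CAMTA1 cells as an exception, collected below confluence while the others were near it, whereas the study's ChIP methods name no exception. The constructs were expressed from a retroviral promoter in a line that does not carry the fusions, and a peak list holds no measure of how much of each protein was made.

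Before any comparison, a conflict over which construct each list stands for has to be stated. The construct written into the peak names disagreed with the label in 14 of 14 lists. Peak names read CAMTA1 where the label is empty vector, empty vector where it is TAZ4SA, TAZ4SA where it is TAZ-CAMTA1, and TAZ-CAMTA1 where it is CAMTA1. They read TFE3 where the label is YAP5SA, YAP5SA where it is YAP-TFE3, and YAP-TFE3 where it is TFE3. Libraries are called by their labels here, the construct in the peak names is given with each test between constructs, and the 2 libraries of a label stay together under either naming. The lists also differed greatly in length, from 5721 peaks in TFE3 replicate 1 to 102009 in TAZ4SA replicate 1 (median 45074.5), covering 3.70 to 175 Mb of the genome. Read totals were not used here, so the depth behind each list is unknown, and list length is given beside the results it moves with.

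The 5 factors act in different layers of the mesenchymal state. TWIST1 is a basic helix-loop-helix factor and SNAI2 (also called Slug) a zinc finger repressor, and both bind E-box sequences and repress epithelial genes such as the one for E-cadherin during epithelial-mesenchymal transition. PRRX1 is a paired-related homeobox factor of limb and craniofacial mesenchyme. RUNX1 and RUNX2 share the Runt DNA-binding domain and the partner CBFB; RUNX1 is required for definitive blood formation and RUNX2 for the osteoblast lineage. Each RUNX gene is transcribed from a distal and a proximal promoter. TAZ and YAP reach DNA mainly through TEAD factors, and RUNX proteins are known partners of both.

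Promoter sequences from RefSeq's table (GRCh38.p14) are shown for 3 genes, PRRX1, RUNX1 and RUNX2. They are shown because the position of peaks relative to the gene starts separated the members. None is shown for SNAI2 or TWIST1. Each sequence is the 250 bases before a start, 5′ to 3′ on the gene's strand. Capitals mark matches, on either strand, to CATTCC (TEAD), TGANTCA (AP-1), CACGTG (MiT/TFE) or TGTGGT (RUNX). The first RUNX2 sequence precedes the distal start, and the second precedes a start further into the gene. The RUNX1 sequence precedes a start inside the gene body.
RUNX2, first start, chr6:45328080-45328329, plus strand: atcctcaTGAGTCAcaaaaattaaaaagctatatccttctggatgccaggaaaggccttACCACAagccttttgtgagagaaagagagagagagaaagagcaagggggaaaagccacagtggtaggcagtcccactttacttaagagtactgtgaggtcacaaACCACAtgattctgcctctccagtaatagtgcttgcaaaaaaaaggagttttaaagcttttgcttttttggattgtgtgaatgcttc
RUNX2, second start, chr6:45422025-45422274, plus strand: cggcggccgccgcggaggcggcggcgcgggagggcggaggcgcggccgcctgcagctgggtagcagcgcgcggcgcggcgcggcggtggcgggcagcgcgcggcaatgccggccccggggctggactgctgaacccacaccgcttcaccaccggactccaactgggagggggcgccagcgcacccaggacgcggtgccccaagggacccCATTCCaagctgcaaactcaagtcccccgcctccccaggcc
RUNX1, inner start, chr21:34888700-34888949, minus strand: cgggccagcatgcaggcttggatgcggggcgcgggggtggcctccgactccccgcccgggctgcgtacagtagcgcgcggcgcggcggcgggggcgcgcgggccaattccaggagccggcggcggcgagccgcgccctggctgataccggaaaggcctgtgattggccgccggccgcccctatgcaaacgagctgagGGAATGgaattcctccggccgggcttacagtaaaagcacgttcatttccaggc
PRRX1, chr1:170663881-170664130, plus strand: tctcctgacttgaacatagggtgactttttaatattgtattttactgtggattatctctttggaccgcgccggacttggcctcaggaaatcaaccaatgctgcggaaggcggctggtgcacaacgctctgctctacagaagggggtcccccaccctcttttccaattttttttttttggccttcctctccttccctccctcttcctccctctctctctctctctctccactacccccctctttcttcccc

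The sequence before the first RUNX2 start had 41.6% GC and 0 CpG dinucleotides, with 1 AP-1 match and 2 RUNX matches. The sequence before the second RUNX2 start had 78.0% GC, 34 CpGs and 1 TEAD match, and more CpGs than 93.2% of the 35116 promoters in the table. The inner RUNX1 promoter was similar, with 71.2% GC, 32 CpGs (more than 90.5% of promoters) and 1 TEAD match. PRRX1 had 50.8% GC, 6 CpGs and none of the 4 motifs. Among all promoters of this length, 11.9% held the TEAD letters, 6.57% the AP-1 letters, 6.34% the MiT/TFE letters and 10.98% the RUNX letters, and the median promoter had 11 CpGs. These matches describe the letters only.

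**Figure D1:**
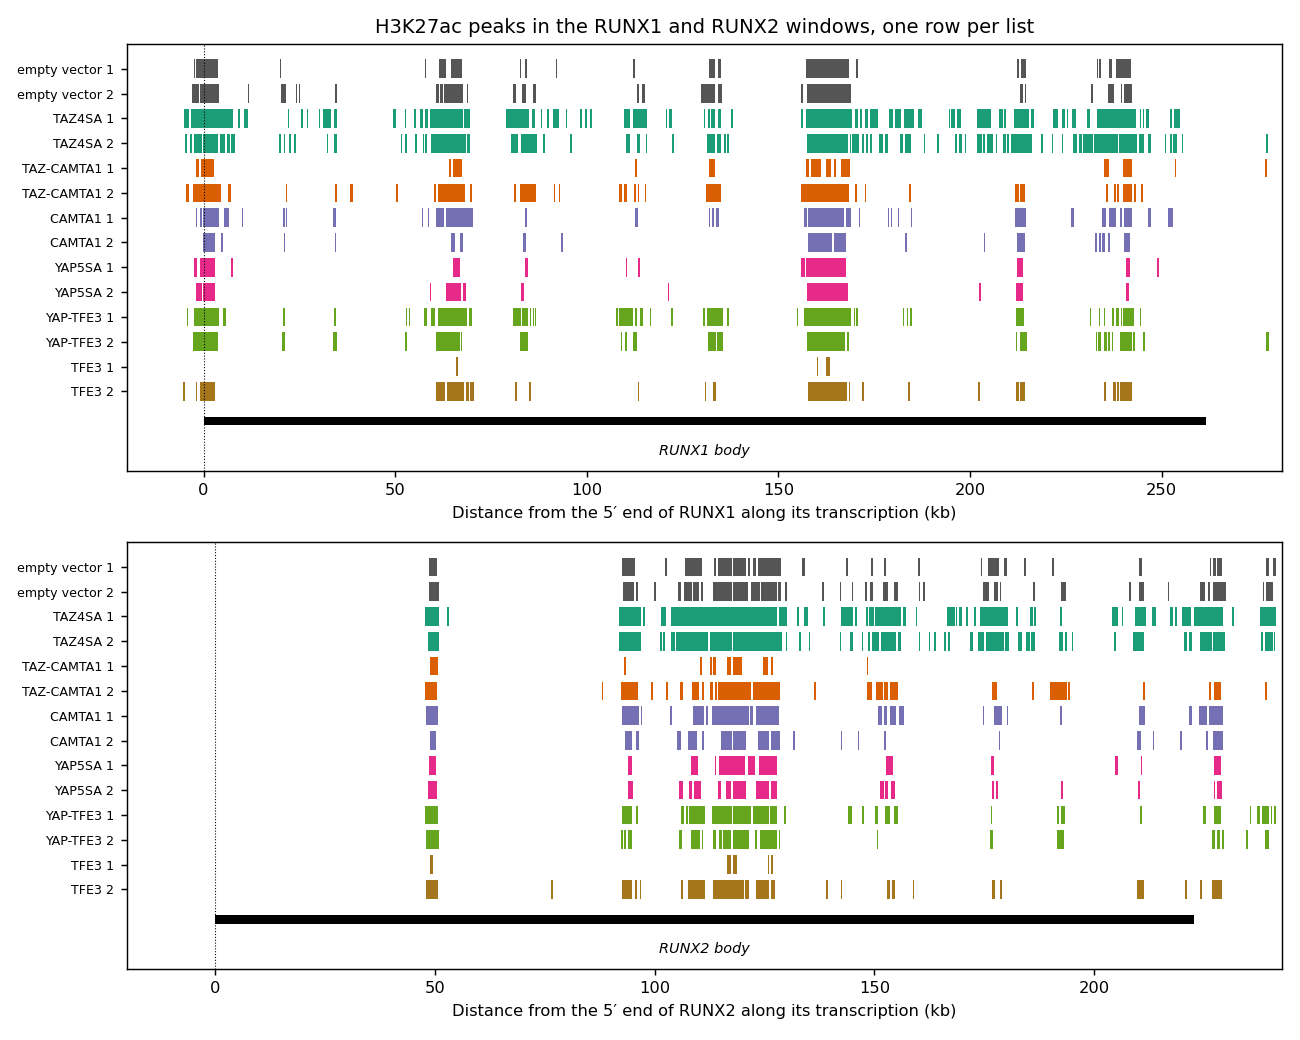
Each row is 1 list and each block 1 H3K27ac peak, placed by its distance in kb from the 5′ end of RUNX1 (top) or RUNX2 (bottom) along the direction of transcription; the black bar is the gene body. Blocks stack at the 5′ end of RUNX1 in 13 of 14 lists, whereas no block lies within 47.8 kb of the 5′ end of RUNX2.

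RUNX1 carried strong and broad H3K27ac peaks. It had a peak in 14 of 14 lists, with 3 to 69 peaks per list (median 24) covering 1.998 to 104 kb, or 0.663% to 34.6% of its window. Within each list, peaks were ranked by the −log10 p-value of the peak caller, and the best RUNX1 peak stood between the top 0.410% and the top 44.6% of its list (median 5.41%). The widest RUNX1 peak measured 0.972 to 12.7 kb (median 10.6 kb), and a median of 0.459% of the peaks in the same list were at least as wide. TFE3 replicate 1, the shortest list, gave the weakest value in each of these measures.

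By median rank, the leading RUNX1 region was not at the distal start but inside the gene. This region, chr21:36252468-36265767, lies in the gene body 156 to 169 kb from the 5′ end and had peaks in all 14 lists, with 1.38 to 12.7 kb covered (median 11.2 kb). Its best peak reached a fold enrichment over the local background of 42.8 in TAZ4SA replicate 2 and 40.5 in TAZ4SA replicate 1, ranks within the top 0.410% and 1.07% of those lists. In the empty vector lists the fold was 12.1 and 13.6, in TAZ-CAMTA1 replicate 2 it was 21.7, and in the other 9 lists it ran from 5.05 to 16.7. The TAZ4SA-labelled pair, the highest here, reads empty vector in its peak names, and each fold belongs to its own list. Whether this region covers the inner RUNX1 start was not tested, because the reference at hand is of another build and coordinates were not converted.

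The region over the 5′ end of RUNX1, chr21:36413283-36425028, had peaks in 13 lists and none in TFE3 replicate 1. Its best rank ran from the top 2.99% to the top 25.6% (median 13.6%), and its best fold from 6.32 in TAZ-CAMTA1 replicate 1 to 28.4 in TAZ4SA replicate 1. This region was the best in YAP5SA replicate 1 (18.7% against 30.7% for the region inside the gene), and in TAZ-CAMTA1 replicate 1 the region chr21:36178162-36189223 led (7.73% against 19.9%). A further region, chr21:36351077-36362624, 59.0 to 70.5 kb from the 5′ end, had peaks in all 14 lists at a lower median rank of 25.9%. Of the 85 merged RUNX1 regions, 6 had peaks in 12 or more lists and 44 in only 1 list. Peaks of the TAZ4SA-labelled lists alone made up 39 of the 85 regions, 8 of them with peaks in both replicates; these are also the 2 longest lists.

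RUNX2 was marked in every list too, but its peaks left the distal start bare. It had 5 to 42 peaks per list (median 22), covering 3.38 to 80.5 kb, or 1.29% to 30.6% of its window. The best RUNX2 peak ranked between the top 2.45% and the top 32.7% (median 6.23%). No list had a peak at the 5′ end, and the nearest peak began 47.8 to 48.9 kb into the gene.

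That nearest region, chr6:45343893-45347010, was narrow and was found throughout. It had exactly 1 peak in each of the 14 lists, 0.637 to 3.12 kb wide, and its rank was within the top 12.1% in all lists but TFE3 replicate 1, where it was 92.8%. Its fold ran from 3.65 in that list to 33.7 in TAZ4SA replicate 1 (median 12.6). In RefSeq the gene SUPT3H, which encodes a subunit of SAGA-type histone acetyltransferase complexes, overlaps RUNX2 on the opposite strand and has starts 49.3 and 49.6 kb from the first RUNX2 start on GRCh38.p14. The region lies 47.8 to 51.0 kb from the RUNX2 5′ end on GRCh37, and whether its acetylation belongs to SUPT3H, to RUNX2 or to both cannot be told apart from peak lists.

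Further in, RUNX2 had a block of acetylation rather than single peaks. The region chr6:45399614-45426229, 104 to 130 kb from the 5′ end, had 2 to 10 peaks in each of 14 lists and 2.74 to 26.1 kb covered (median 16.3 kb). One peak of 24.1 kb filled most of it in TAZ4SA replicate 1, and only 0.219% of the peaks of that list were as wide. A region just before it, chr6:45387999-45393263, 91.9 to 97.2 kb from the 5′ end, had peaks in 13 lists with a best rank of 6.81% to 95.2% (median 22.7%). The second RUNX2 start shown above lies 93.9 kb from the first on GRCh38.p14; these distances come from different builds and were not matched base by base. Of the 58 merged RUNX2 regions, 6 had peaks in 12 or more lists and 36 in 1 list, and 22 came from the TAZ4SA-labelled lists alone.

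**Figure D2:**
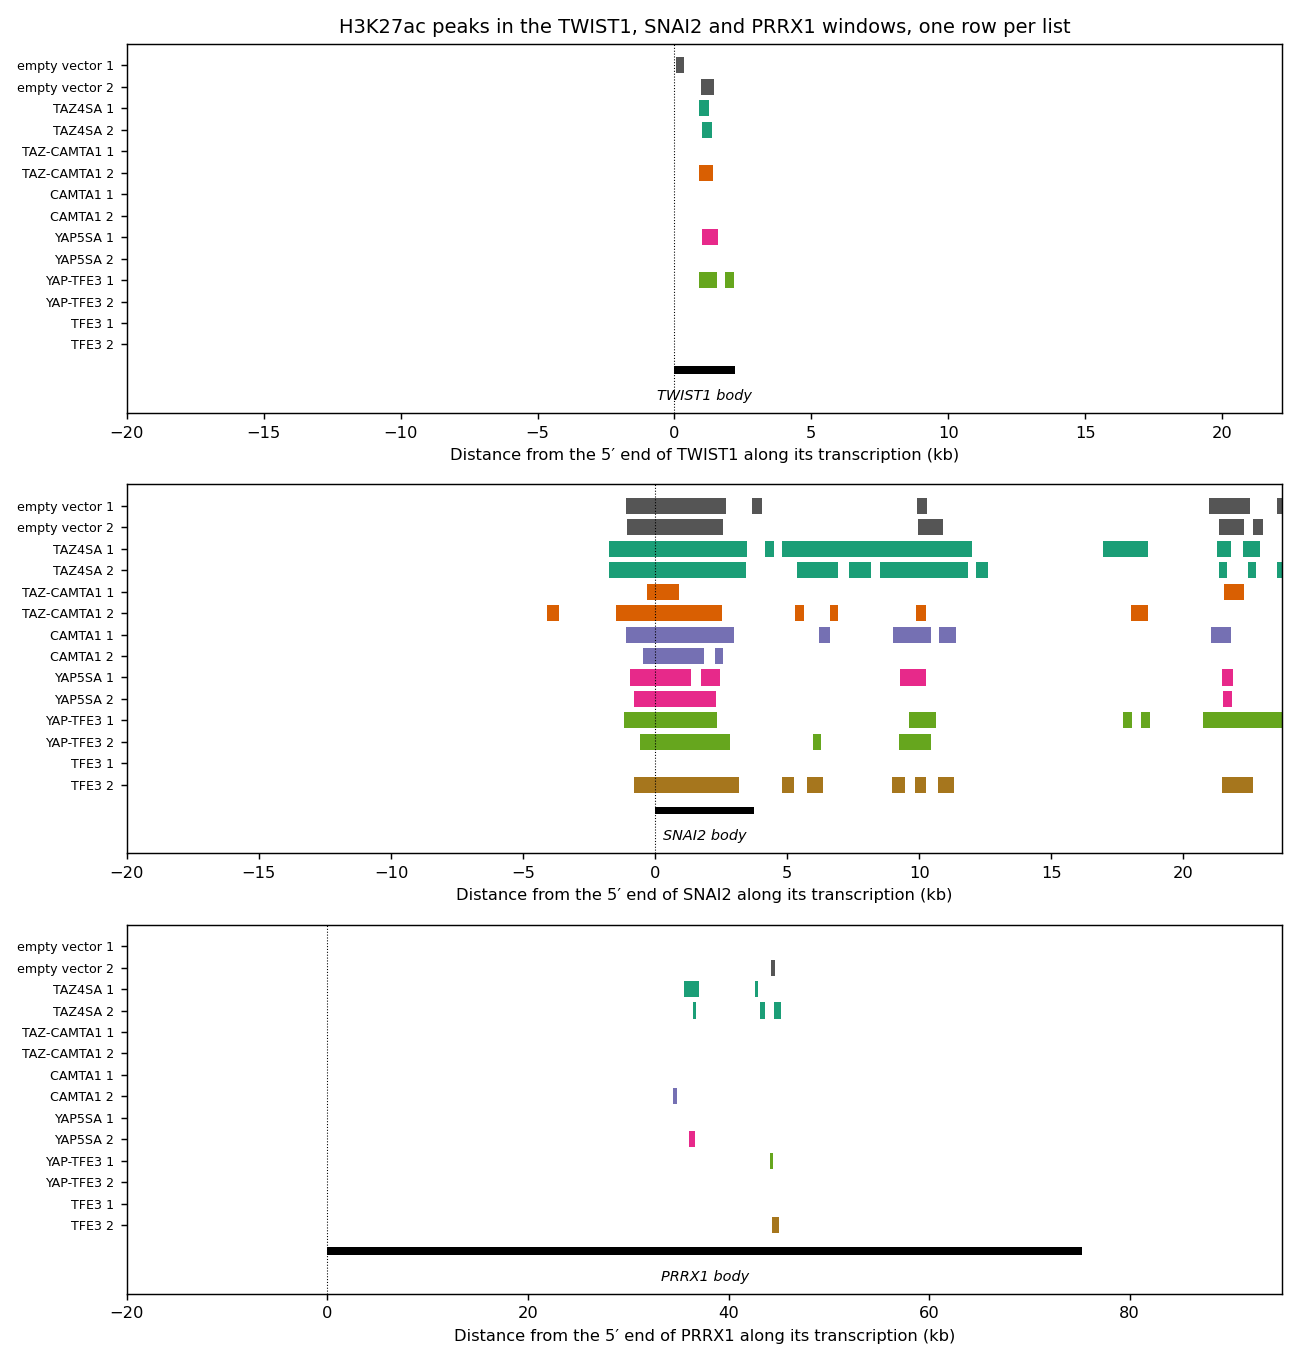
H3K27ac peaks in the windows of TWIST1, SNAI2 and PRRX1, 1 row per list, placed by distance in kb from the 5′ end along transcription; the black bar is the gene body. SNAI2 has a block over its 5′ end in 13 lists, whereas TWIST1 and PRRX1 have short peaks in 7 lists each, none of them covering the 5′ end. Those of TWIST1 lie inside its short gene body.

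SNAI2 was the one short gene with a well-marked start. In 13 of 14 lists, all but TFE3 replicate 1, a peak covered its 5′ end within the region chr8:49830500-49835748, which spans the whole of the 3.75 kb gene except its last bases. This peak was 1.21 to 5.25 kb wide (median 3.65 kb), ranked between the top 5.90% and 42.2% of its list (median 20.2%) and had a fold of 4.50 to 18.4 (median 6.92). The fold at SNAI2 was 18.4 and 18.0 in the TAZ4SA-labelled lists (empty vector by the peak names), 15.2 in TAZ-CAMTA1 replicate 2 and 11.8 in empty vector replicate 1. Downstream of the gene, regions at 4.805 to 11.99 kb and at 20.7 to 23.9 kb from the 5′ end each had peaks in 10 lists. Peaks covered 0 to 15.6 kb of the window, a median of 13.7% of its length.

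TWIST1 and PRRX1 were nearly bare. A TWIST1 peak was present in 7 of 14 lists and covered at most 1.02 kb, and its rank was poor, between 42.0% and 93.6% of the list (median 70.0%), with folds of 2.92 to 4.13. In 6 of these lists the peak lay in 1 region of the gene body, chr7:19155693-19156412, 0.883 to 1.60 kb from the 5′ end. In the remaining list, empty vector replicate 1, it came within 43 bp of the 5′ end without covering it. Both empty vector and both TAZ4SA lists had a peak, and neither list of CAMTA1 or TFE3 did. One replicate each of TAZ-CAMTA1, YAP5SA and YAP-TFE3 had a peak and the other did not, so that presence varied within labels as it did between them.

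A PRRX1 peak was also present in 7 lists, and no peak lay closer than 34.5 kb to its 5′ end on GRCh37. The best PRRX1 peak ranked from 34.9% to 84.8% (median 71.1%), with folds of 3.25 to 4.72. The most frequent PRRX1 region, chr1:170677433-170678570, 44.1 to 45.3 kb into the gene, had peaks in 4 lists. Cover was 1.77 and 1.56 kb in the TAZ4SA-labelled lists, 0 in both TAZ-CAMTA1 lists, and 0 to 0.768 kb in the other 10. The 2 TAZ4SA values (empty vector by the peak names) did not overlap those of any other label.

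**Figure D3:**
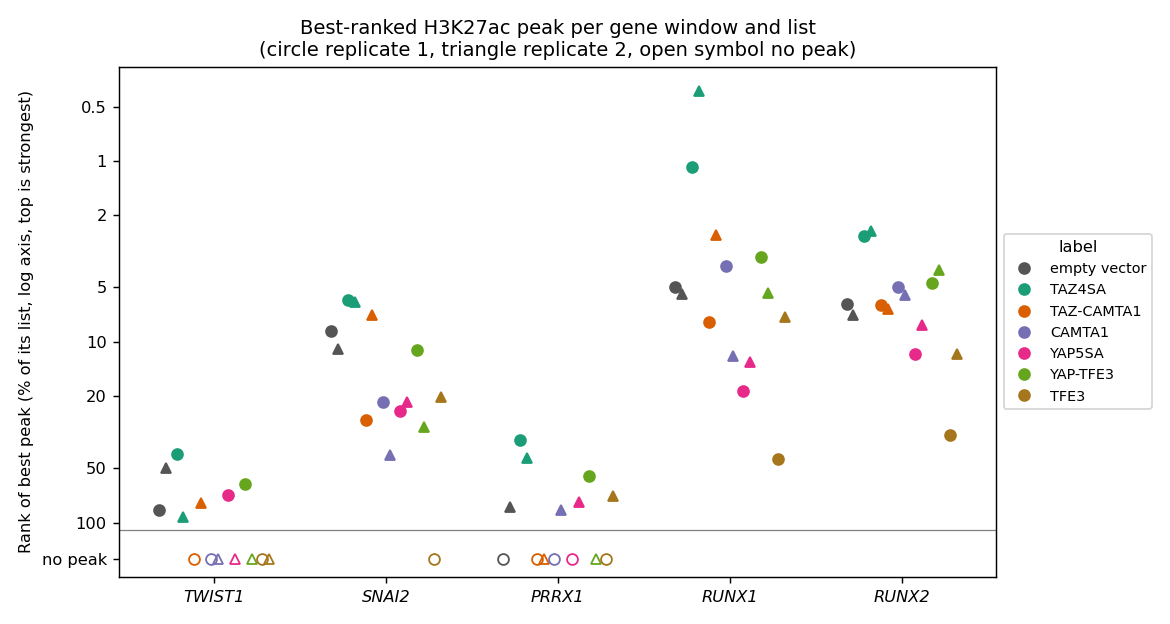
For each gene and list, the rank of the best H3K27ac peak in the window as a percent of its list is drawn on a log axis with the strongest ranks at the top; open symbols below the line mark lists without a peak. RUNX1 and RUNX2 have a peak in every list, with median ranks of 5.41% and 6.23%, against 20.2% for SNAI2, 71.1% for PRRX1 and 70.0% for TWIST1.

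The order of the 5 genes was thus RUNX1 and RUNX2, then SNAI2, then TWIST1 and PRRX1. RUNX1 and RUNX2 overlapped in best rank throughout, as did TWIST1 and PRRX1, and neither pair can be ordered from these ranges. When every list was reduced to its 5721 strongest peaks, the length of the shortest list, RUNX2 kept a peak in 14 lists, RUNX1 in 13 and SNAI2 in 3, and TWIST1 and PRRX1 in none. At a −log10 q-value of at least 5, peaks stayed in 14 lists for both RUNX genes, in 13 for SNAI2, in 2 for TWIST1 and in 1 for PRRX1. Longer windows have more chances to hold a strong peak, and the RUNX windows are the longest.

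The number of regions shared by all 14 lists was 2 for RUNX1, 2 for RUNX2 and 0 for the others. Without TFE3 replicate 1 it was 4, 4 and, for SNAI2, 1. Among the 5721 strongest peaks of each list it was 0 for RUNX1 and 1 for RUNX2, the narrow region opposite SUPT3H.

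**Figure D4:**
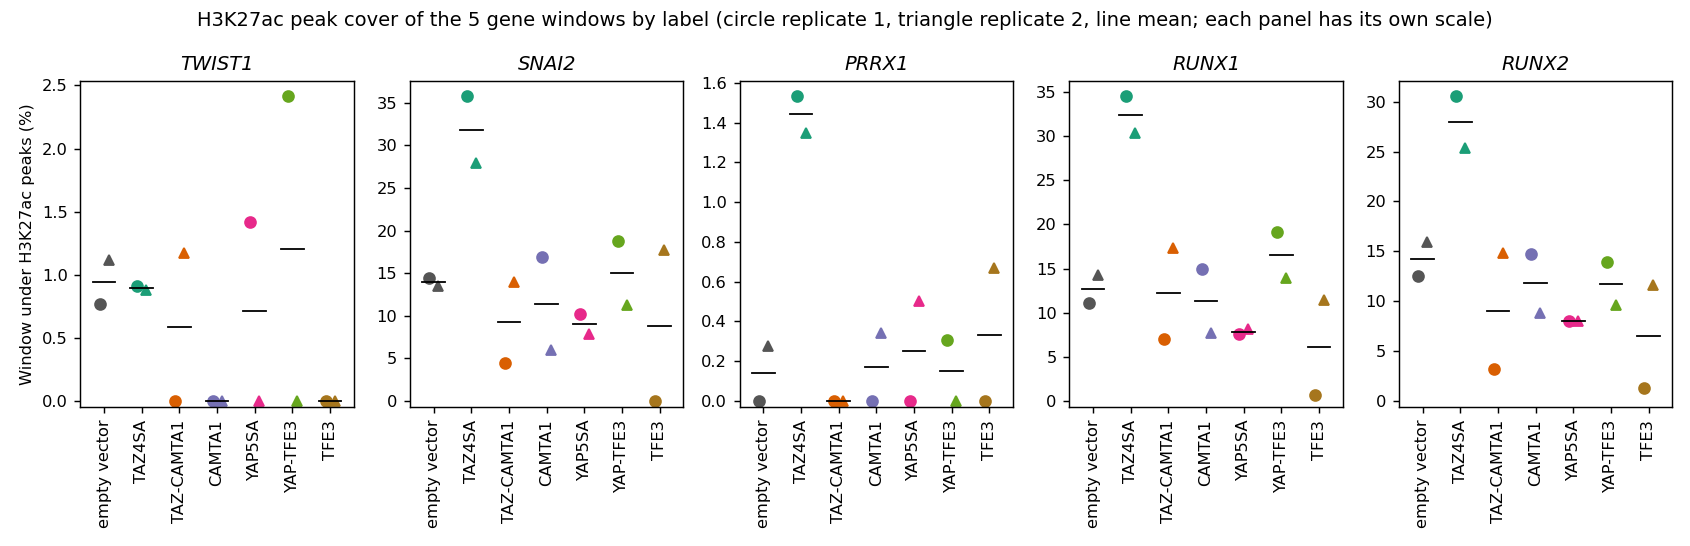
Percent of each gene window under H3K27ac peaks by label; circles are replicate 1, triangles replicate 2, lines the mean of the 2, and each panel has its own scale starting near 0. The TAZ4SA-labelled pair, named empty vector in its peak names, is highest for SNAI2, PRRX1, RUNX1 and RUNX2, and the 2 TFE3 libraries lie far apart for SNAI2, RUNX1 and RUNX2.

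The constructs were compared by the length of each window under peaks. For RUNX1 the TAZ4SA-labelled lists had 104 and 91.4 kb (97.8 kb ± 9.07, SD, n = 2), and the empty vector lists 33.5 and 43.0 kb (38.3 kb ± 6.75). TAZ-CAMTA1 had 21.1 and 52.4 kb (36.8 kb ± 22.1), and CAMTA1 44.9 and 23.1 kb (34.0 kb ± 15.39). The TAZ4SA-labelled values, of lists that read empty vector in their peak names, stood above those of every other list. In the other arm, YAP5SA had 22.9 and 24.5 kb (23.7 kb ± 1.14), YAP-TFE3 57.7 and 42.0 kb (49.9 kb ± 11.1), and TFE3 1.998 and 34.5 kb (18.3 kb ± 23.004). YAP-TFE3 was above YAP5SA in both lists, and the 2 TFE3 lists differed more from each other than any other pair did by ratio.

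At RUNX2 too the TAZ4SA-labelled lists had the most cover. The TAZ4SA-labelled lists had 80.5 and 66.7 kb (73.6 kb ± 9.73, n = 2), the empty vector lists 32.8 and 41.8 kb (37.3 kb ± 6.37), and TAZ-CAMTA1 8.51 and 39.0 kb (23.8 kb ± 21.6). CAMTA1 had 38.8 and 23.3 kb, YAP5SA 21.1 and 21.0 kb, YAP-TFE3 36.7 and 25.1 kb, and TFE3 3.38 and 30.6 kb. The TAZ4SA pair (empty vector by the peak names) did not overlap any other.

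For SNAI2 the TAZ4SA-labelled lists had 15.6 and 12.2 kb (13.9 kb ± 2.44, n = 2), against 6.30 and 5.92 kb in the empty vector lists and 1.97 and 6.11 kb in TAZ-CAMTA1. CAMTA1 had 7.37 and 2.64 kb, YAP5SA 4.46 and 3.46 kb, YAP-TFE3 8.19 and 4.93 kb, and TFE3 0 and 7.74 kb. Here too the TAZ4SA pair, empty vector by the peak names, lay above all other lists. Such a TAZ4SA pair above the other 12 lists was common, being found in 63.8% of windows as long as that of SNAI2, 65.6% for PRRX1, 68.5% for RUNX1 and 67.8% for RUNX2.

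These differences were tested with limma on log2(covered bp + 1000), fitted together with windows of the same length spaced 250 kb apart on 23 chromosomes, with Benjamini-Hochberg adjustment over all of them. Across the 7 labels, the limma F test gave an adjusted p of 0.0487 for PRRX1 (F = 4.27), and 0.543 for TWIST1, 0.394 for SNAI2, 0.337 for RUNX1 and 0.432 for RUNX2. The share of same-length windows called at an adjusted p below 0.05 was 32.0% for the TWIST1 length, 31.9% for SNAI2, 22.1% for PRRX1, 14.4% for RUNX1 and 15.9% for RUNX2. The PRRX1 call was 1 of 5 genes against this background, and it was lost in 8 of the 14 fits that left out 1 library, with an adjusted p of up to 0.343 without TAZ4SA replicate 1. An exact one-sided permutation test over the 135135 ways to pair the 14 lists gave p = 0.101 for PRRX1, 0.188 for RUNX1, 0.261 for RUNX2, 0.442 for SNAI2 and 0.664 for TWIST1.

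TAZ-CAMTA1 against TAZ4SA sets the fusion, which keeps only the N terminus of TAZ, against full-length TAZ with mutated serines. A difference between them cannot be put down to CAMTA1 alone. The fitted mean was lower under the TAZ-CAMTA1 label for all 5, and only PRRX1 passed the test, with a log2 difference of −1.41 ± 0.32 (SE; limma adjusted p = 0.00499). The log2 difference was −0.17 ± 0.32 for TWIST1, −1.69 ± 0.88 for SNAI2, −1.52 ± 1.11 for RUNX1 and −1.93 ± 1.06 for RUNX2, with limma adjusted p of 0.639, 0.128, 0.262 and 0.162. Of same-length windows, 42.2% (TWIST1), 41.7% (SNAI2), 30.5% (PRRX1), 15.3% (RUNX1) and 17.1% (RUNX2) were called, and the median window was itself lower, by −1.10 to −1.41. The direction did not hold under every setting. The TWIST1 lists overlapped, with 0.496 kb in TAZ-CAMTA1 replicate 2 against 0.385 and 0.372 kb in TAZ4SA, and its log2 difference was 0.12 without TAZ-CAMTA1 replicate 1. The PRRX1 value depends on the pseudocount, because both TAZ-CAMTA1 lists were at 0 there, and was −4.14 with an adjusted p of 0.0730 at a pseudocount of 100 bp.

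The SE of this contrast at SNAI2, RUNX1 and RUNX2 depended on the 2 TFE3 libraries. Without either of them it fell from 0.88 to 0.51 for SNAI2, from 1.11 to 0.53 for RUNX1 and from 1.06 to 0.61 for RUNX2, while at TWIST1, where both TFE3 lists were at 0, it rose from 0.32 to 0.34. Without TFE3 replicate 1 the same log2 differences passed for SNAI2 (limma adjusted p = 0.0188), RUNX1 (0.0293) and RUNX2 (0.0206) as well as PRRX1 (0.00375), and without TFE3 replicate 2 they passed too (0.0186, 0.0282 and 0.0202 for the first 3). The background rose with them. Without TFE3 replicate 1, 58.7% of windows as long as that of TWIST1 were called, 58.4% for SNAI2, 58.5% for PRRX1, 59.0% for RUNX1 and 58.4% for RUNX2. Without TFE3 replicate 2 the shares were 58.9% for SNAI2, 59.1% for RUNX1 and 58.4% for RUNX2. The F test across the 7 labels passed for these 3 genes without TFE3 replicate 2 as well, where 64.5% (SNAI2), 80.7% (RUNX1) and 79.3% (RUNX2) of same-length windows were called. After scaling each list to its total cover, no gene passed in this comparison, and the difference became 0.051 for TWIST1, −0.08 for SNAI2, −0.75 for PRRX1 (limma adjusted p = 0.283), 0.34 for RUNX1 and −0.10 for RUNX2. By the peak names this contrast sets TAZ4SA against the empty vector. Under the naming of the peaks, TAZ-CAMTA1 against TAZ4SA lost the PRRX1 call and turned its sign (0.24, limma adjusted p = 1, with 0.801% of windows of that length called), and it turned at SNAI2 (0.26) and RUNX2 (0.67) too.

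YAP-TFE3 against YAP5SA is the matching comparison for YAP and TFE3, with the same limit, since the fusion keeps only the N terminus of YAP. Cover was higher in both YAP-TFE3 lists than in both YAP5SA lists for SNAI2, RUNX1 and RUNX2, but none of the 5 genes passed. The same order without overlap held in 34.7%, 49.8% and 48.4% of windows as long as those of SNAI2, RUNX1 and RUNX2. The YAP-TFE3 lists were also the longer ones, with 57505 and 39653 peaks against 31086 and 30236. The log2 difference was 1.03 ± 1.11 (SE) for RUNX1, 0.58 ± 0.88 for SNAI2, 0.51 ± 1.06 for RUNX2, 0.17 ± 0.32 for TWIST1 and −0.11 ± 0.32 for PRRX1, with limma adjusted p of 0.932 to 1. Called windows made up 5.34%, 5.37%, 6.28%, 6.57% and 6.58% at the lengths of TWIST1, SNAI2, PRRX1, RUNX1 and RUNX2, and the median window was itself higher, by 0.17 to 0.44. After scaling each list to its total cover the difference was 0.014 for SNAI2, 0.37 for RUNX1 and −0.14 for RUNX2. Every list was also reduced to its strongest peaks, as many as the shortest list holds. The difference was then 2.66 ± 1.04 for RUNX1 and 0.53 ± 0.88 for RUNX2, and neither passed (limma adjusted p = 0.167 and 0.847). No YAP-TFE3 or YAP5SA list kept a SNAI2 peak there. Scaling thus lowered the RUNX1 difference, whereas reducing the lists raised it. By the peak names this contrast is YAP5SA against TFE3. Grouping by peak names reversed YAP-TFE3 against YAP5SA at all 5 genes, to −0.51 (TWIST1), −1.32 (SNAI2), 0.19 (PRRX1), −2.28 (RUNX1) and −1.42 (RUNX2), and none passed. The median window turned as well, to between −0.488 and −1.186, and 5.42% to 7.21% of same-length windows were called. By the labels, at SNAI2, RUNX1 and RUNX2 both TAZ-CAMTA1 lists also lay below both TAZ4SA lists, and 21.2%, 34.6% and 33.3% of windows of their lengths shared both orders. In a test of the difference between the TAZ and YAP contrasts, none of SNAI2, RUNX1 and RUNX2 passed, and 30.8%, 8.33% and 9.15% of windows of their lengths did. All 3 passed without either TFE3 library, where the shares were 48.1%, 56.1% and 54.7% without replicate 1 and 48.5%, 56.1% and 55.1% without replicate 2. With 2 libraries against 2, an exact permutation test cannot go below p = 0.333 and was not run for single pairs of labels.

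Taking the 6 constructs together against the empty vector, no gene passed, with log2 differences of −0.51 ± 0.81 (RUNX2) to 0.24 ± 0.24 (PRRX1) and limma adjusted p of at least 0.999. At the lengths of TWIST1, SNAI2, PRRX1, RUNX1 and RUNX2, the share of windows called was 0%, 0.0448%, 0.0320%, 0.0504% and 0.0259%. Exact two-sided permutation tests over the 91 ways to choose 2 of 14 lists gave p of 0.505 to 0.758 for the 5 genes.

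The answer depended on the naming. When lists were grouped by the construct in their peak names, so that the 2 longest lists became the empty vector, cover was lower with the 6 constructs at all 5 genes. The log2 difference was −1.18 ± 0.24 for PRRX1 (limma adjusted p = 0.00167; exact two-sided permutation p = 0.0110, the smallest that 91 splits allow). It was −1.52 ± 0.67 for SNAI2, −1.78 ± 0.85 for RUNX1, −1.63 ± 0.81 for RUNX2 and −0.19 ± 0.24 for TWIST1, with limma adjusted p of 0.0667, 0.0832, 0.0915 and 0.466. The exact two-sided permutation p for these genes, in the same order, was 0.0659, 0.110, 0.0549 and 0.516. Under this grouping 57.8% (TWIST1), 57.4% (SNAI2), 51.6% (PRRX1), 40.8% (RUNX1) and 43.2% (RUNX2) of same-length windows were called, and of the 3221 called at the PRRX1 length only 23 were higher.

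**Figure D5:**
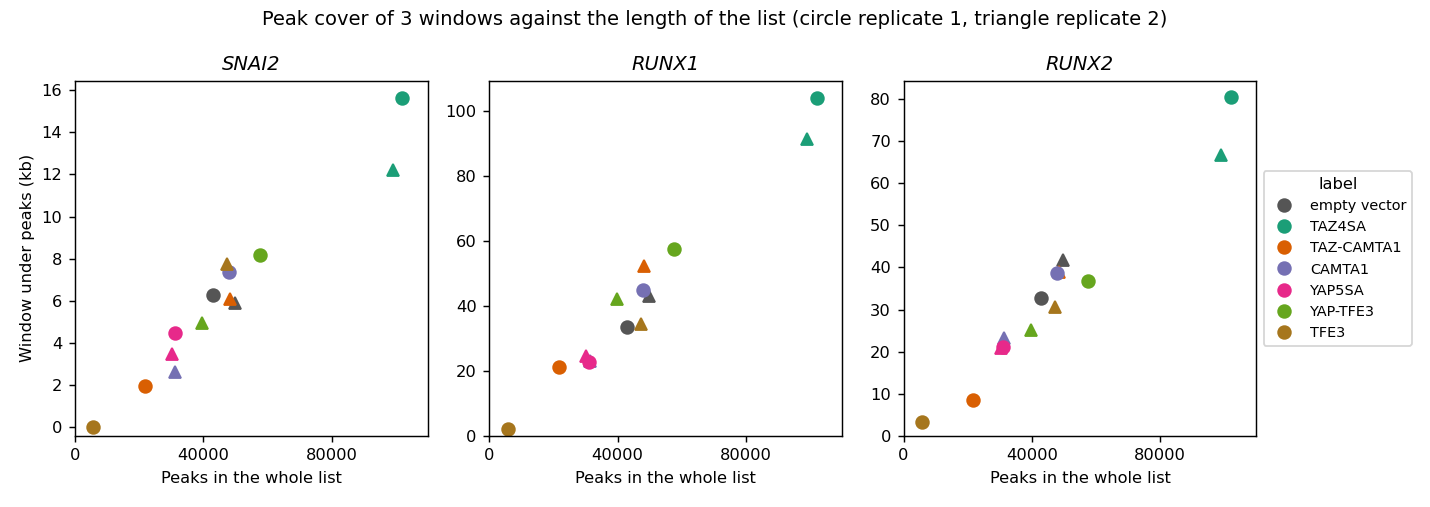
Length of the SNAI2, RUNX1 and RUNX2 windows under peaks (kb) against the number of peaks in the whole list, 1 symbol per list, with circles for replicate 1 and triangles for replicate 2. Cover tends to rise with list length in all 3 panels, from the list of 5721 peaks to the 2 lists with 98992 and 102009 peaks.

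Cover at the well-marked genes followed the length of the list. Over the 14 lists, Spearman's rho between cover and the number of peaks in the list was 0.969 for RUNX2, 0.960 for RUNX1 and 0.912 for SNAI2, against 0.575 for TWIST1 and 0.509 for PRRX1. RUNX1 was most like RUNX2 (rho 0.930), then SNAI2 (0.895), and SNAI2 and RUNX2 had a rho of 0.855, all 3 sharing the lengths of the same lists. As a share of all cover in a list, RUNX1 took 531 to 878 bp per Mb (median 655), a 1.65-fold range where its cover itself spanned 52.2-fold. RUNX2 took 354 to 915 bp per Mb (median 520), a 2.59-fold range against 23.8-fold. The highest RUNX2 share was that of TFE3 replicate 1 and the lowest that of TAZ-CAMTA1 replicate 1, and both TAZ4SA-labelled lists were below the median at 460 and 467 bp per Mb. What sets the length of a list was not tested.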

How the data were processed

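H3K27ac ChIP-seq peak lists of 14 SW872 libraries were analysed, and the 14 inputs listed beside them were not used here. According to the study's methods and processing notes, reads were aligned with BWA to GRCh37/hg19 and narrow peaks called with MACS2. The extract protocol of the labels names the anti-Flag antibody, whereas the antibody field and the methods name H3K27ac. Per peak, the deposited columns hold a score, the fold enrichment (a ratio of summit to local background) and the significance as −log10 of p and of q, written by the authors' caller. Significance was used as ranks within a list and, in an alternative setting, as a cutoff of a −log10 q of at least 5. Folds are set side by side between lists, with no test. The score column was not used. The methods state pooled replicates, whereas these lists are separate for each library, and their lowest −log10 q was 1.30 to 1.33.

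Genes and tests were chosen with earlier results of these data known. Gene bodies on GRCh37 were taken from the rule that defined the windows. Peaks were ranked by −log10 p within a list, and overlapping peaks of different lists merged. Cover was tested with limma 3.58.1 (R 4.3.3, trended variance) on log2(covered bp + 1000), over windows of each gene's window length every 250 kb, kept where at least 2 lists had a peak. These p-values measure the spread between the study's duplicates. Genes named are the 5 members, with the region over each 5′ end and up to 3 regions with the best median rank among those in most lists; other regions and SUPT3H were chosen after their values were seen. The test was also run on simulated data with a capped spread, independent noise and no difference in list length. That run does not show how the test behaves with the spread and list lengths seen here. Other epithelial-mesenchymal factors need a GRCh37 annotation and were not analysed here. Python 3.11.15, numpy 2.4.6, pandas 2.3.3 and matplotlib 3.10.9 were used.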

Additional observations from a re-analysis of the deposited data

Results flagged for a closer look

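At 3 genes every TAZ-CAMTA1 list lay below both TAZ4SA lists while every YAP-TFE3 list lay above both YAP5SA lists. Both orders were shared by 21.2% of windows as long as that of SNAI2, 34.6% for RUNX1 and 33.3% for RUNX2. The difference between these 2 contrasts was −2.27 ± 1.24 (SE) on the log2 scale for SNAI2, −2.55 ± 1.57 for RUNX1 and −2.44 ± 1.501 for RUNX2, and none passed (limma adjusted p = 0.160, 0.221 and 0.218). Without TFE3 replicate 1 the same differences passed, with limma adjusted p of 0.0305, 0.0233 and 0.0360, and without TFE3 replicate 2 with 0.0300, 0.0227 and 0.0353. The shares of same-length windows that passed were 30.8%, 8.33% and 9.15% with all lists, 48.1%, 56.1% and 54.7% without TFE3 replicate 1, and 48.5%, 56.1% and 55.1% without TFE3 replicate 2. Grouping by the construct in the peak names turned the sign at all 3 genes, to 1.58, 2.24 and 2.09, and none passed (limma adjusted p = 0.764, 0.579 and 0.595). The median window of their lengths was itself positive there, at 0.5565, 1.185 and 1.133, and 0.0896%, 0.113% and 0.13% of windows passed. Among the 5721 strongest peaks of each list the values were −2.76 for RUNX1 and −0.79 for RUNX2, and neither passed (limma adjusted p = 0.343 and 0.731). At RUNX1 the TAZ contrast was then −0.10 and the YAP contrast 2.66, so its value came nearly all from the YAP contrast. At RUNX2 they were −0.26 and 0.53. At SNAI2 the value turned to 1.16 there, but of these 8 lists only TAZ-CAMTA1 replicate 2 kept a SNAI2 peak. That value rests on 1 library and does not compare the 2 contrasts. With each list scaled to its total cover the differences at SNAI2, RUNX1 and RUNX2 were −0.09, −0.03 and 0.04. The TAZ4SA-labelled lists are the 2 longest of the series, and the part of list length was examined only by that scaling and, at RUNX1 and RUNX2, by keeping the 5721 strongest peaks of each list.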

How the results depend on the processing

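The tests of cover at the 5 genes under the alternatives gave 439 values with an unchanged direction and call, 14 that lost a call, 15 that gained one and 26 that reversed. These include the difference between the TAZ and YAP contrasts at SNAI2, RUNX1 and RUNX2, whose alternatives were added after seeing the data. PRRX1 lost its F test call after scaling to the list total (F = 0.82), with the gene body only (4.25), with a pseudocount of 100 bp (1.87) and without a filter on low values (3.85), and its TAZ-CAMTA1 against TAZ4SA call after scaling (−0.75) and with the pseudocount of 100 bp (−4.14). Scaling reversed values that were not called, TAZ-CAMTA1 against TAZ4SA at TWIST1 (0.051) and RUNX1 (0.34), YAP-TFE3 against YAP5SA at TWIST1 (−0.034) and RUNX2 (−0.14), and the 6 constructs against the empty vector at RUNX1 (0.027). Keeping the 5721 strongest peaks of each list turned TAZ-CAMTA1 against TAZ4SA at SNAI2 to 1.16, a value that rests on 1 library, because only TAZ-CAMTA1 replicate 2 of these 4 lists kept a peak and those of TAZ4SA, at ranks 6020 and 5970, fell just past the limit. Grouping by peak names reversed TAZ-CAMTA1 against TAZ4SA at SNAI2 (0.26), PRRX1 (0.24, which ended its call) and RUNX2 (0.67), YAP-TFE3 against YAP5SA at TWIST1 (−0.51), SNAI2 (−1.32), PRRX1 (0.19), RUNX1 (−2.28) and RUNX2 (−1.42), and the 6 constructs against the empty vector at PRRX1 (−1.18). The difference between the TAZ and YAP contrasts reversed after scaling at RUNX2 (0.042), among the 5721 strongest peaks at SNAI2 (1.16, from the same single library), and by peak names at SNAI2 (1.58), RUNX1 (2.24) and RUNX2 (2.09). The causes of the other changes were not tested.

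With each library left out in turn, F ran from 0.68 to 2.62 (TWIST1), 0.81 to 7.01 (SNAI2), 2.21 to 5.87 (PRRX1), 0.95 to 10.9 (RUNX1) and 0.68 to 5.53 (RUNX2). SNAI2, RUNX1 and RUNX2 gained the F test call without TFE3 replicate 2 (limma adjusted p = 0.0132, 0.00281 and 0.0111), where 64.5%, 80.7% and 79.3% of windows of their lengths were called as well. PRRX1 lost it without either library of the empty vector, TAZ4SA or TAZ-CAMTA1, without CAMTA1 replicate 1 and without YAP5SA replicate 1. TAZ-CAMTA1 against TAZ4SA ran from −0.46 to 0.12 (TWIST1), −2.32 to −1.06 (SNAI2), −1.47 to −1.35 (PRRX1), −2.16 to −0.88 (RUNX1) and −2.97 to −0.89 (RUNX2). YAP-TFE3 against YAP5SA ran from −0.34 to 0.68, 0.27 to 0.90, −0.44 to 0.22, 0.80 to 1.25 and 0.25 to 0.78 for the same genes, and the 6 constructs against the empty vector from −0.30 to −0.13, −0.54 to −0.02, 0.04 to 0.43, −0.51 to 0.084 and −0.75 to −0.27. The difference between the TAZ and YAP contrasts ran from −2.90 to −1.64 (SNAI2), −3.18 to −1.91 (RUNX1) and −3.48 to −1.40 (RUNX2), and gained its call without either TFE3 library at all 3. The reversals with 1 library left out were at TWIST1 without TAZ-CAMTA1 replicate 1 (0.12), without YAP5SA replicate 2 (−0.17) and without YAP-TFE3 replicate 1 (−0.34), at PRRX1 without YAP5SA replicate 2 (0.22) and without YAP-TFE3 replicate 2 (0.10), and at RUNX1 without TFE3 replicate 1 (0.084). Where 1 library was left out, the lone library of that label was taken to vary like the others.

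Replicate numbers showed no pairing common to all labels, since the correlation of their deviations had a median of −0.03 to 0.02 over 21 pairs of labels. Single pairs of labels ran from −0.59 to 0.52, and whether some labels share a pairing was not tested. With the replicate number as a block the limma adjusted p was 0.0434 for the PRRX1 F test and 0.00446 for its TAZ-CAMTA1 against TAZ4SA difference, which stayed at −1.41, and no call changed. TWIST1 and PRRX1 had no peak among the 5721 strongest of any list, and PRRX1 had peaks in fewer than 2 lists at a −log10 q of at least 5, so that these fits gave no value. Read depth is unknown, and a gene without a peak is one that did not pass the caller's threshold, not one shown to lack acetylation.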
